A study of Homo sapiens with 12 samples.

Results

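The 10 genes described here encode transcription factors of the AP-1 group and other early response factors: FOS, FOSB, FOSL1, FOSL2, JUN, JUNB, JUND, ATF3, EGR1 and MYC. They were chosen by gene symbol, and their rows in the authors' deposited table of differential expression were joined by gene identifier to the expression values of each library. Of the 10 symbols, 9 had a row in the RNA table of 19460 genes, and FOSL1 had none, so that its RNA is not analysed here. The cells were T-47D, an established human luminal breast cancer line that carries the oestrogen receptor, grown in medium with serum and labelled wild type in the RNA series. One set of dishes received 1 µM palbociclib, an inhibitor of the cell cycle kinases CDK4 and CDK6, and the control dishes received the solvent DMSO (0.1% in the ATAC-seq dishes), each for 24 h. Both treatments were measured in 3 biological replicates by poly(A) RNA sequencing and in 3 by ATAC-seq, in which the enzyme Tn5 cuts open chromatin. All groups come from this 1 line at 1 dose and 1 time, and serum was present throughout, so no acute stimulation is part of the design.

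AP-1 is a dimer of basic leucine zipper proteins that binds DNA at the sequence TGANTCA and, less strongly, at TGACGTCA. JUN proteins can pair with each other or with FOS proteins, whereas FOS proteins need a JUN partner, and ATF3 joins the same dimers and is induced by stress. FOS, EGR1 and their relatives are immediate early genes: growth factors switch them on within minutes through MAP kinase signalling and the serum response factor, and their RNA is short-lived. MYC, a basic helix-loop-helix factor that binds CACGTG as a dimer with MAX, drives genes for ribosome production and cell growth, and in oestrogen receptor positive breast cells it is a known target of oestrogen.

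RNA levels are given in FPKM, a unit of fragments scaled by transcript length and library size, which can be compared between genes. Changes are palbociclib minus DMSO on the scale log2(FPKM + 1), tested with limma over the 15869 genes with a mean of at least 0.5 FPKM, and a gene was called at a Benjamini-Hochberg adjusted p under 0.05. Over all tested genes 3312 were called higher and 3628 lower, and after median centring of each library the split was 5468 and 2465. Genes of dividing cells checked for the action of the drug fell: RRM2, a subunit of ribonucleotide reductase, fell from 106 ± 2.45 to 1.57 ± 0.139 FPKM (SD, n = 3), and MKI67 fell from 30.8 ± 1.27 to 1.62 ± 0.117. All 12 luminal breast markers listed reached 1 FPKM, with sums of 5733 to 6275 in DMSO and 7697 to 8504 after palbociclib, and their part in the results below was not tested. Of the listed markers of other cells, 0 of 5 endothelial markers had a row, 3 of 6 immune markers had one (sums of 1.01 to 1.69 against 1.10 to 1.40 FPKM), 2 of 6 basal ones (8.98 to 9.21 against 8.57 to 9.23) and 4 of 6 fibroblast ones (23.9 to 25.3 against 24.8 to 27.1). These are bulk libraries, so more cells with a transcript and more transcript per cell cannot be told apart.

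All 3 JUN genes and FOSL2 had more RNA after palbociclib, by 1.38- to 1.56-fold, while MYC rose by 1.10-fold and ATF3 did not pass the test. FOS, FOSB and EGR1 lay below 0.5 FPKM on average and were left out of the test. Of the 6 tested genes, 5 were called higher and 0 lower, where 43.7% of all tested genes were called, 20.9% higher and 22.9% lower. In the authors' deposited table the same 5 of 9 genes were higher at an adjusted p under 0.05, as were 17.9% of all genes there (38.2% in either direction). The median limma log2 change of the 6 tested genes was 0.44, and that of all tested genes was 0.0023. The groups did not overlap in the 5 genes called higher, and neither did they in 54.7% of all tested genes.

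**Figure D1:**
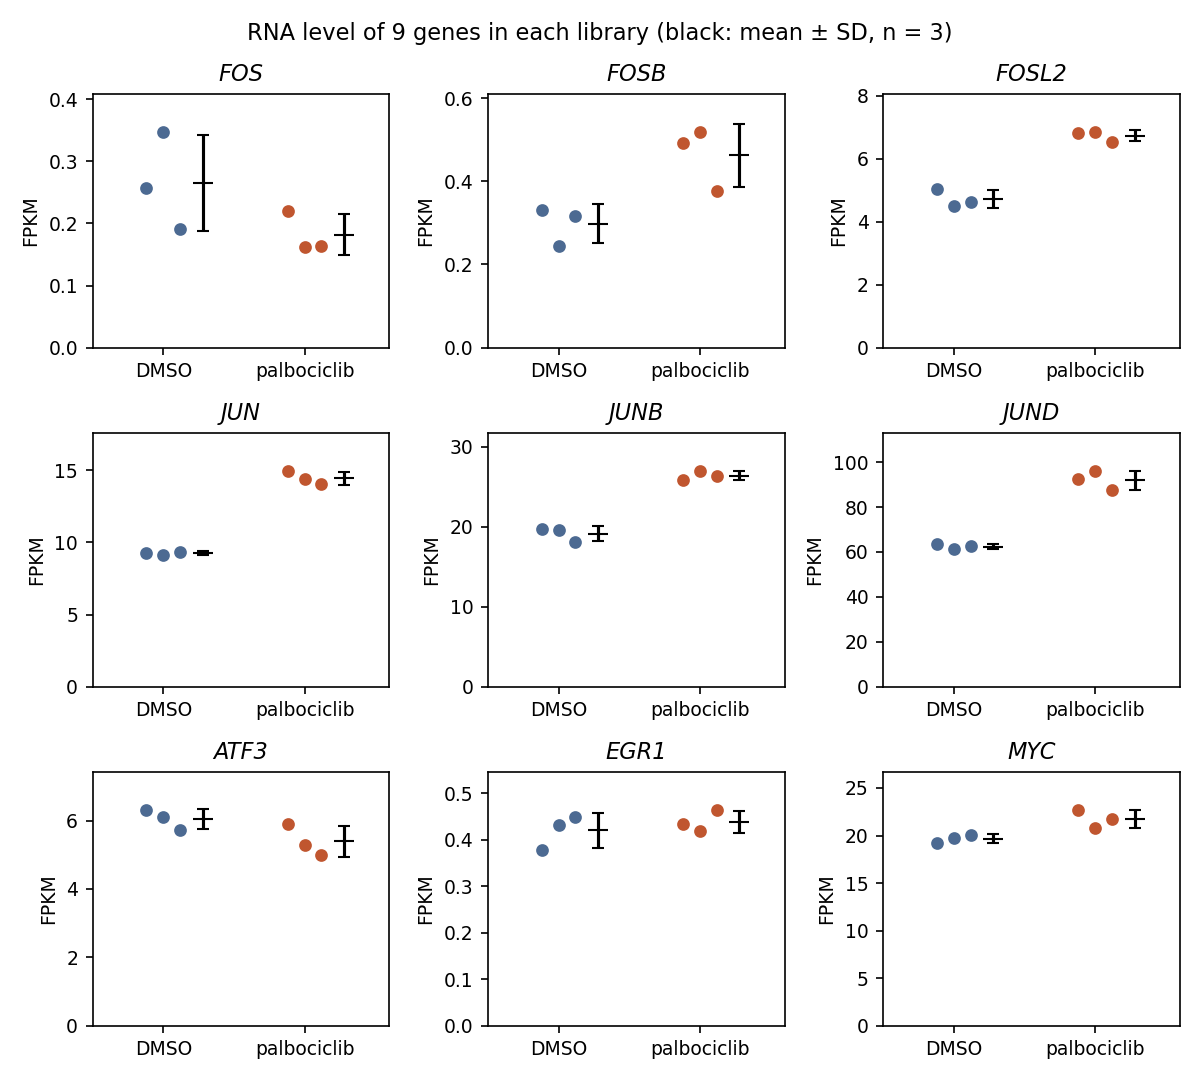
RNA level in FPKM (y axes, each from 0 with its own scale) of the 9 genes with a row, in 3 DMSO and 3 palbociclib libraries; points are libraries and black marks are the mean ± SD. JUN, JUNB, JUND and FOSL2 are higher in every palbociclib library than in every DMSO library, MYC is so by a narrow margin, and the ATF3, FOS and EGR1 libraries overlap.

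JUN (chromosome 1, 58780791 to 58784047, RefSeq on GRCh38.p14), the founding member of AP-1, had 9.30, 9.12 and 9.36 FPKM in the DMSO libraries and 14.9, 14.4 and 14.03 in the palbociclib libraries. The highest control library was far below the lowest treated one. The means were 9.26 ± 0.122 and 14.5 ± 0.454 FPKM (SD, n = 3), a log2 change of 0.59 (SE 0.045, limma adjusted p = 1.63e-05). Among all tested genes 2.09% changed by at least as much in this direction. In the authors' deposited table JUN had a log2 change of 0.64 at an adjusted p of 2.04e-24, from a mean normalized count of 2001.

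JUND (chromosome 19, 18279694 to 18281622), the JUN protein that is commonly present in resting cells, was the most abundant of the 9 genes in both groups. Its libraries read 63.3, 61.3 and 62.5 FPKM in DMSO and 92.3, 95.9 and 87.4 after palbociclib, without overlap. The means of 62.4 ± 1.02 and 91.9 ± 4.28 FPKM gave a log2 change of 0.55 (SE 0.039, limma adjusted p = 1.09e-05), which 2.7% of all tested genes reached. The spread among treated libraries was wider than among controls, and it was still small beside the difference.

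JUNB (chromosome 19, 12791486 to 12793315), a JUN protein that can hold back JUN activity, had 19.7, 19.6 and 18.1 FPKM in DMSO and 25.8, 26.9 and 26.3 after palbociclib. Every treated library lay above every control library. The log2 change was 0.44 (SE 0.044, limma adjusted p = 8.75e-05) between means of 19.1 ± 0.895 and 26.4 ± 0.537 FPKM, and 4.81% of all tested genes reached that change. The authors' deposited table gave 0.56 for JUND and 0.46 for JUNB as log2 changes, at adjusted p values of 2.02e-23 and 1.99e-10.

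FOSL2 (chromosome 2, 28392858 to 28417317), also called FRA2, is a FOS relative without the strong activation domain of FOS and was the only FOS gene tested. Its libraries held 5.04, 4.51 and 4.64 FPKM in DMSO and 6.83, 6.85 and 6.53 after palbociclib. The treated libraries again stood clear of the controls. Means of 4.73 ± 0.277 and 6.73 ± 0.178 FPKM gave a log2 change of 0.43 (SE 0.059, limma adjusted p = 0.000528), reached by 5.17% of tested genes. The calls of JUN, JUNB, JUND and FOSL2 held under all 13 alternatives tried, with highest adjusted p values of 0.000186, 0.000758, 0.000206 and 0.00346.

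FOS (chromosome 14, 75278828 to 75282230), the partner that is induced most sharply by serum, was listed at 0.257, 0.347 and 0.191 FPKM in DMSO and 0.220, 0.162 and 0.164 after palbociclib, and the groups overlapped. At 0.265 ± 0.0779 and 0.182 ± 0.0329 FPKM it was the lowest of the 9 genes in both groups, although in DMSO its range overlapped that of FOSB. The authors' deposited table had a mean normalized count of only 23.5 for FOS, with a log2 change of -0.55 (SE 0.49) at an adjusted p of 0.419, so a change of this size was not detectable at this depth.

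FOSB (chromosome 19, 45467996 to 45475179), another FOS protein, had 0.332, 0.245 and 0.318 FPKM in DMSO and 0.493, 0.518 and 0.376 after palbociclib. Each treated library was above each control, with means of 0.298 ± 0.0469 and 0.462 ± 0.0755 FPKM. Without the filter on low values limma gave a log2 change of 0.17 at an adjusted p of 0.0553, and the authors' deposited table gave 0.64 (SE 0.28) at an adjusted p of 0.0523 from a mean normalized count of 82.8. Both miss the threshold, and the log2(FPKM + 1) scale understates the change of genes this low.

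EGR1 (chromosome 5, 138465479 to 138469303), a zinc finger factor switched on by the same signals as FOS, was listed at 0.379, 0.432 and 0.449 FPKM in DMSO and 0.434, 0.418 and 0.463 after palbociclib. The ranges overlapped, with means of 0.420 ± 0.0367 and 0.438 ± 0.0229 FPKM. In the authors' deposited table the log2 change of EGR1 was 0.063 (SE 0.28) at an adjusted p of 0.901.

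ATF3 (chromosome 1, 212565407 to 212620777), the stress-induced AP-1 member, had 6.30, 6.12 and 5.73 FPKM in DMSO and 5.89, 5.28 and 5.00 after palbociclib. Its highest treated library lay within the range of the controls. The means were 6.05 ± 0.290 and 5.39 ± 0.459 FPKM, with a log2 change of -0.14 (SE 0.070) that did not pass the test (limma adjusted p = 0.131), and 72.5% of tested genes had a change at least as high on the signed scale. It stayed uncalled under all 13 alternatives, with adjusted p values from 0.0583 to 0.600, and the authors' deposited table had an adjusted p of 0.204.

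**Figure D2:**
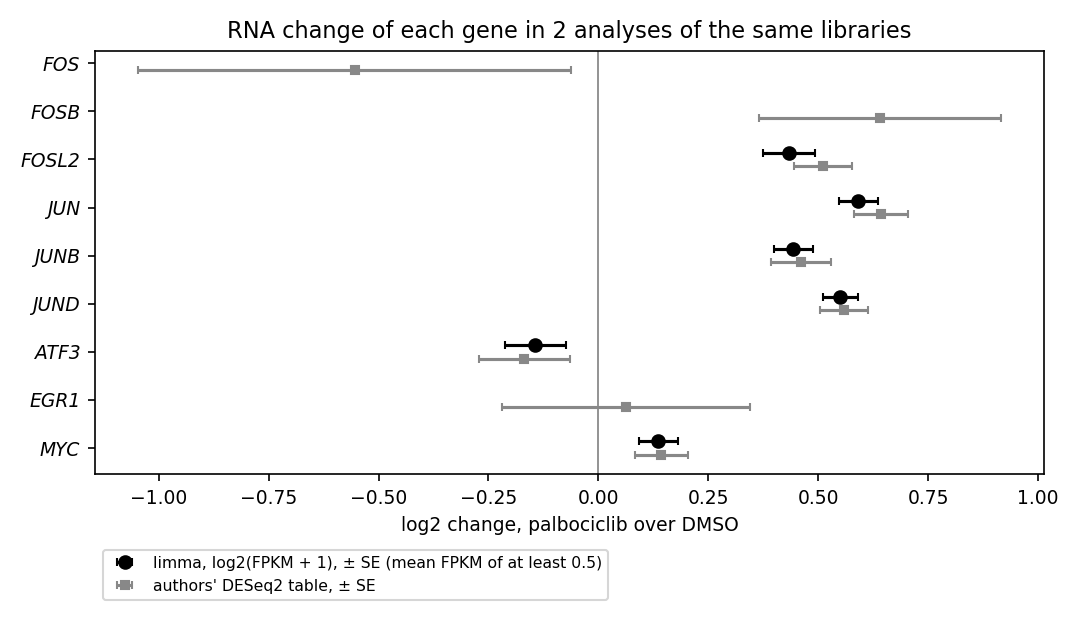
Log2 change, palbociclib over DMSO, of the 9 genes (x axis), with bars of 1 SE; black circles are limma on log2(FPKM + 1) for the 6 tested genes, and grey squares are the authors' DESeq2 values. FOSL2, JUN, JUNB and JUND lie between 0.43 and 0.64 in both, MYC at 0.14 in both, and the bars are widest for the low genes FOS, FOSB and EGR1.

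By level, JUND led in DMSO, then MYC and JUNB with overlapping ranges, then JUN, ATF3 and FOSL2, and EGR1, FOSB and FOS at the bottom. After palbociclib JUNB stood above MYC, and FOSL2 above ATF3, in both cases without overlap between the libraries. The summed FPKM of the JUN genes was 90.8 ± 1.40 in DMSO and 132.7 ± 4.76 after palbociclib, a ratio of 1.46, and that of FOS, FOSB and FOSL2 was 5.29 ± 0.292 and 7.38 ± 0.268, a ratio of 1.39. JUN family RNA therefore exceeded FOS family RNA by 17.2 ± 0.667 times in DMSO and 18.0 ± 0.305 times after palbociclib, with overlapping libraries, and FOSL1 is missing from this ratio. JUND made up 68.7 ± 0.678% of JUN family FPKM in DMSO and 69.2 ± 0.749% after palbociclib, again with overlap. The share of JUN was 10.2 ± 0.180% and 10.9 ± 0.367%, and that of FOSL2 in the FOS family 89.3 ± 0.872% and 91.3 ± 0.947%, both without overlap. These sums and shares describe chosen genes and were not tested.

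The bases just before the start sites of the 4 genes that rose together are shown so that they can be set against EGR1, an immediate early gene with serum response elements that stayed low. Each run is the 250 bases before the RefSeq start on GRCh38.p14, 5′ to 3′ on the strand of the gene, with any searched motif in capitals. JUN is on the minus strand at chr1:58784048-58784297, JUNB on the plus strand at chr19:12791236-12791485, JUND on the minus strand at chr19:18281623-18281872, FOSL2 on the plus strand at chr2:28392608-28392857 and EGR1 on the plus strand at chr5:138465229-138465478.
JUN: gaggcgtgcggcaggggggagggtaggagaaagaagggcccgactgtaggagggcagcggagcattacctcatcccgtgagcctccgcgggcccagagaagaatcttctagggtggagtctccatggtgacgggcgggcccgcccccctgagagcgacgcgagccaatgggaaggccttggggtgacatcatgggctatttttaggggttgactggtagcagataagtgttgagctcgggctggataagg
JUNB: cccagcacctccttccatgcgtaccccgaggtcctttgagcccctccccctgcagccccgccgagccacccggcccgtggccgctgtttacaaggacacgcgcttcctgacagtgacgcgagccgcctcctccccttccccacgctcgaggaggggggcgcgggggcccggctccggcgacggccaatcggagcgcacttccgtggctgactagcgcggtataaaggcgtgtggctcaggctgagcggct
JUND: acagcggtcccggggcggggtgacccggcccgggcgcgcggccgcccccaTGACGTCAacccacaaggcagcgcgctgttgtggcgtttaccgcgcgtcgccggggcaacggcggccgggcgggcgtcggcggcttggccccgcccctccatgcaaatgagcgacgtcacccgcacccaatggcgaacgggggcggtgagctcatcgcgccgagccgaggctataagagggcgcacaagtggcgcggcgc
FOSL2: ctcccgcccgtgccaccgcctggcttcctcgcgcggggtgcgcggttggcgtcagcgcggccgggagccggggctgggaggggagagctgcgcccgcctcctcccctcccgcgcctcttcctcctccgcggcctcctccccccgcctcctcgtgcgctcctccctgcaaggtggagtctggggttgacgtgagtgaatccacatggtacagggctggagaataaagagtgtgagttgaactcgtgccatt
EGR1: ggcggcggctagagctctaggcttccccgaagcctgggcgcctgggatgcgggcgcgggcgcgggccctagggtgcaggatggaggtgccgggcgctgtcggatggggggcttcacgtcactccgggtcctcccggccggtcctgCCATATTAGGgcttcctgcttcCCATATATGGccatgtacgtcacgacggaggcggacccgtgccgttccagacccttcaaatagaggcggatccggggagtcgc

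Both strands were searched for TGANTCA and TGACGTCA (AP-1 and its relatives), CACGTG (MYC with MAX) and the CArG box (serum response factor), none of which overlapped another. RefSeq promoter entries matched 8 of the 10 genes, with 9 starts because ATF3 has 2, and there was none for FOSL1 and MYC. The capitals in JUND mark TGACGTCA at bases -200 to -193 from the start, a motif in 1.65% of all 35116 promoters of this length. The capitals in EGR1 mark CArG boxes at -105 to -96 and -83 to -74, and 1.16% of promoters hold at least 1. TGANTCA (6.57% of promoters) and CACGTG (6.34%) were in none of the 9 windows, and TGACTCA appeared only just after the start of FOSL2, at bases 4 to 10. The runs of JUN, JUNB, JUND and FOSL2 are 62%, 70.8%, 74.8% and 69.6% G or C, against a median of 58% over all promoters, and that of EGR1 is 68.4%. Only exact matches were taken, so near ones, such as tgacatca in the JUN run, are not in capitals. Matches and their absence describe these letters and no binding was measured.

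The genes whose RNA profile over the 6 libraries lay nearest to those of JUN, JUND and JUNB were found by the root mean square difference of log2(FPKM + 1) after setting the DMSO mean of each gene to 0. For JUN these were APOD, a lipid-binding secreted protein, at a difference of 0.016 and FBP1, a gluconeogenic enzyme, at 0.026. For JUND they were GSN, the actin-severing protein gelsolin, at 0.029 and ELF5, a mammary transcription factor, at 0.030, and for JUNB they were ACSF2 at 0.017 and NADSYN1 at 0.022. Within a wider difference of 0.05 lay 23 genes for JUN, 30 for JUND and 60 for JUNB, so the named genes are not the only ones with similar profiles.

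Among 28 listed basic leucine zipper genes that can pair with or compete with AP-1, 23 were tested. Over all tested genes 20.9% were called higher and 22.9% lower. Of these 23 genes, 5 were called higher (21.7%), 4 lower (17.4%) and 14 not. Their median log2 change was -0.0026, and it was 0.046 under quantile normalization and 0.093 under median centring. The median of all tested genes moved alike, from 0.0023 to 0.057 and 0.098, so the list stayed near it. MAFK, a small MAF protein without an activation domain, rose from 22.6 ± 0.154 to 36.7 ± 1.79 FPKM (limma log2 change 0.67, adjusted p = 5.19e-06), while its close relative MAFG fell from 6.74 ± 0.385 to 4.85 ± 0.113 (log2 -0.40, adjusted p = 0.000767). ATF5 fell from 17.5 ± 0.750 to 9.91 ± 0.735 FPKM and ATF4, the main factor of the amino acid stress response, from 136 ± 1.55 to 115 ± 2.74. BATF and CREB3L4 rose by 0.33 and 0.23 on the log2 scale.

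Among the other immediate early genes more were called higher than lower. Of 36 listed, 33 had a row and 28 were tested, of which 15 were called higher (53.6%), 2 lower and 11 not, with a median log2 change of 0.17 (0.22 under quantile normalization and 0.27 under median centring). Over all tested genes 20.9% were called higher and 22.9% lower, and median centring raised the number called higher from 3312 to 5468. Their median log2 change was 0.0023, and it was 0.057 under quantile normalization and 0.098 under median centring. The median over the list was 0.18, 0.18 and 0.19 above the DMSO mean in the 3 palbociclib libraries and between -0.020 and 0.014 in the DMSO libraries. RHOB, a small GTPase, rose from 72.3 ± 2.51 to 114 ± 4.25 FPKM (limma log2 change 0.65, adjusted p = 4.42e-06), and BTG1, an antiproliferative factor, from 178 ± 6.48 to 277 ± 3.52 (log2 0.64, adjusted p = 1.73e-06). CSRNP1 rose from 2.84 ± 0.0895 to 4.28 ± 0.226 FPKM. The remaining genes called higher were IER2, NR4A1, ZFP36, ZFP36L1, DUSP1, BTG2, CCN1, TRIB1, MCL1, PLK2, TSC22D1 and PPP1R15A, and they include mRNA decay factors (ZFP36, ZFP36L1) and a phosphatase of MAP kinases (DUSP1). The calls of IER2, TRIB1 and PPP1R15A were the least firm of these 15, and were lost in 5, 7 and 8 of 13 alternatives. IER5 fell from 12.7 ± 0.393 to 8.68 ± 0.362 FPKM and ZFP36L2 by 0.34 on the log2 scale. EGR2, EGR4 and ARC had no row, and 5 genes, among them NR4A3 and CCN2, were under 0.5 FPKM, so the least abundant immediate early genes are outside these counts.

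Among 30 listed kinases and serum response factors upstream of FOS and EGR1, 28 were tested. Of these, 3 were called higher (10.7%, against 20.9% of all tested genes), 8 lower (28.6%, against 22.9%) and 17 not. The median log2 change of the list was -0.022, and it turned to 0.059 under quantile normalization and 0.074 under median centring. The median of all tested genes also moved, from 0.0023 to 0.057 and 0.098. MAPK7, RPS6KA4 and MAP3K5 fell by 0.39, 0.38 and 0.34 on the log2 scale. MAP3K1, upstream of the JNK kinases, rose from 26.7 ± 0.280 to 31.9 ± 0.550 FPKM (limma adjusted p = 0.000487), and MAP2K3 rose by 0.23 on the log2 scale. SRF, the serum response factor, passed narrowly at 8.47 ± 0.331 and 9.47 ± 0.274 FPKM (log2 0.15, adjusted p = 0.0482), and 6 of 13 alternatives ended that call.

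Feedback and output genes of the ERK pathway were called in both directions. Of 13 tested, 2 were called higher (15.4%, against 20.9% of all tested genes), 3 lower (23.1%, against 22.9%) and 8 not. The median log2 change of the list was 0.0073. CCND1, which encodes cyclin D1 and is also an AP-1 target, rose from 96.7 ± 2.25 to 203 ± 3.52 FPKM (limma log2 change 1.06, adjusted p = 2.89e-08), and PHLDA1 from 10.3 ± 0.0712 to 18.2 ± 0.412. DUSP7, a phosphatase of ERK, fell from 2.23 ± 0.232 to 1.33 ± 0.0706 FPKM, and SPRED1 fell by 0.31 on the log2 scale, a call that 4 of 13 alternatives ended. ETV1, an ETS factor, had the largest fall of the list, from 1.184 ± 0.301 to 0.289 ± 0.195 FPKM (log2 -0.76, or -1.81 with a pseudocount of 0.1, adjusted p = 0.00234), and was named after its values were seen. Its relatives ETV4 and ETV5 were under 0.5 FPKM and not tested, and had log2 changes of -2.03 and -1.69 in the authors' deposited table at adjusted p values of 0.00445 and 0.0207. DUSP6, the classical readout of ERK activity, was at 0.903 ± 0.180 and 1.05 ± 0.355 FPKM and did not pass (adjusted p = 0.597).

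Of 26 listed AP-1 target genes, 19 had a row and 16 were tested. Of these, 7 were called higher (43.8%, against 20.9% of all tested genes), 4 lower (25%, against 22.9%) and 5 not. The median log2 change of the list was 0.11. Clusterin (CLU), a secreted chaperone, rose from 783 ± 73.3 to 1552 ± 174 FPKM (limma log2 change 0.98, adjusted p = 4.96e-05), involucrin (IVL) from 3.00 ± 0.254 to 5.51 ± 0.181 and the gap junction gene GJA1 from 7.32 ± 0.282 to 11.7 ± 0.185. MT2A, a metallothionein, fell from 39.0 ± 3.38 to 10.4 ± 1.34 FPKM (log2 -1.81, adjusted p = 1.28e-06), and HMOX1 and PLAUR fell by 0.55 and 0.48 on the log2 scale. The protease genes MMP1, MMP3 and MMP13 had no row. The list median differed between treated libraries, at -0.010 in replicate 1 and 0.14 and 0.13 in replicates 2 and 3, and it was 0.039 without DMSO replicate 1 and 0.21 without DMSO replicate 2.

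**Figure D3:**
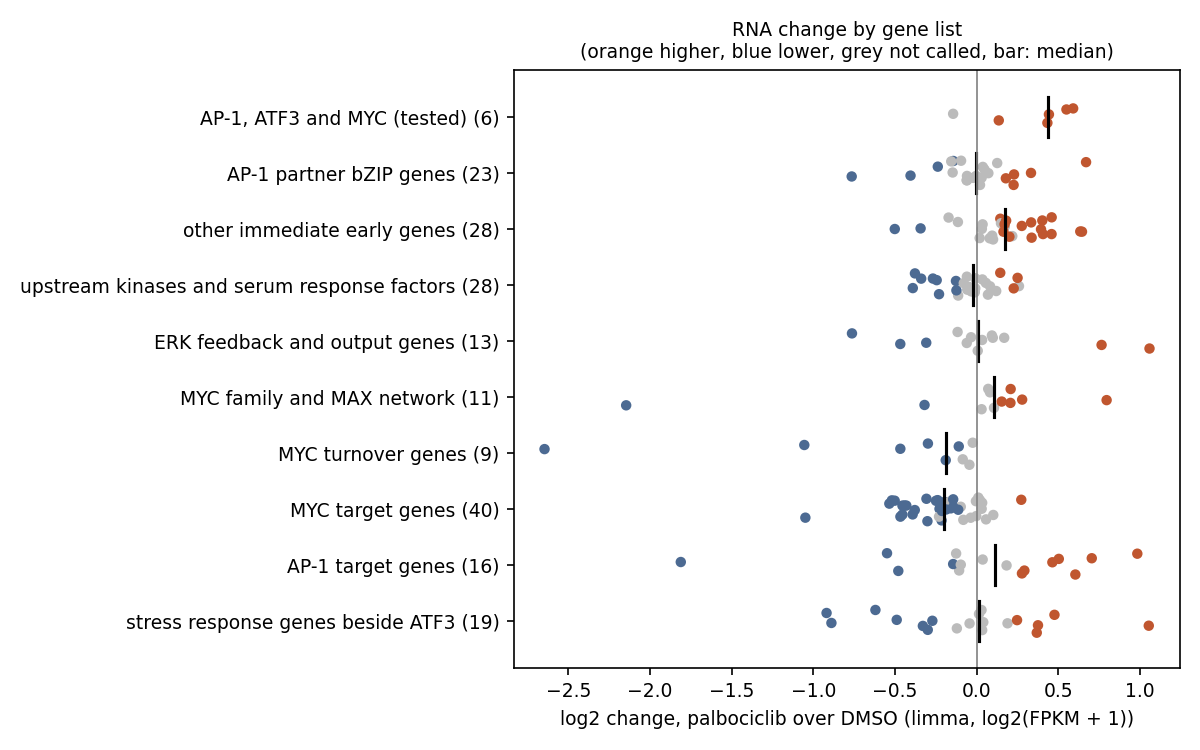
Log2 change, palbociclib over DMSO, on the scale log2(FPKM + 1) (x axis) of each tested gene in 10 groups (rows, with the number of genes tested); orange genes were called higher, blue lower and grey not, and black bars are medians. The other immediate early genes have a median of 0.17 and the MYC target genes one of -0.20, while the AP-1 partner genes spread on both sides of 0.

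ATF3 was set beside 19 genes of the stress responses in which it takes part, all of which were tested. Of these, 5 were called higher (26.3%, against 20.9% of all tested genes), 7 lower (36.8%, against 22.9%) and 7 not. The median log2 change of the list was 0.015. Among the genes that fell were enzymes of serine and asparagine synthesis, with PHGDH from 59.3 ± 1.19 to 30.9 ± 1.73 FPKM (limma log2 change -0.92, adjusted p = 9.94e-07), PSAT1 by 0.89 and ASNS by 0.62 on the log2 scale. Among those that rose were HSPA5, a chaperone of the endoplasmic reticulum, at 428 ± 17.1 and 597 ± 29.9 FPKM (log2 0.48, adjusted p = 6.01e-05) and its co-chaperone DNAJB9, by 0.38 on the log2 scale. DDIT4, an inhibitor of mTOR signalling, also rose, from 15.2 ± 0.538 to 32.7 ± 1.6 FPKM.

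MYC (chromosome 8, 127735434 to 127742951) had 19.2, 19.8 and 20.1 FPKM in the DMSO libraries and 22.7, 20.8 and 21.7 after palbociclib. The groups did not overlap, but the lowest treated library was close to the highest control. Means of 19.7 ± 0.446 and 21.7 ± 0.934 FPKM gave a log2 change of 0.14 (SE 0.044, limma adjusted p = 0.0355), a size that 28.2% of all tested genes reached, and the authors' deposited table gave 0.14 at an adjusted p of 0.0445. The call was lost in 6 of 13 alternatives: without the intensity trend (adjusted p = 0.0573), with the replicate block (0.0509), and without DMSO replicate 1 (0.109), DMSO replicate 2 (0.0775), palbociclib replicate 1 (0.116) or palbociclib replicate 3 (0.0704). The log2 change stayed between 0.11 and 0.23 throughout.

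Among the partners and rivals of MYC, MXD3 and MXD4 had the largest changes. Of 11 tested genes of the MYC family and the MAX network, 5 were called higher (45.5%), 2 lower (18.2%) and 4 not. Over all tested genes 20.9% were called higher and 22.9% lower. The median log2 change of the list was 0.11 (0.17 under quantile normalization and 0.20 under median centring). The median of all tested genes moved upward too, from 0.0023 to 0.057 and 0.098. MXD4, a repressor that competes for MAX, rose from 18.3 ± 1.65 to 32.5 ± 1.22 FPKM (limma log2 change 0.80, adjusted p = 2.34e-05), and its relative MXD3, a family member expressed in dividing cells, fell from 21.0 ± 0.922 to 3.97 ± 0.355 (log2 -2.15, adjusted p = 3.83e-08). The change of MXD3 was thus the reverse of that of MXD4 and much larger. MLX rose by 0.28 on the log2 scale, MXD1 by 0.21, a call that 6 of 13 alternatives ended, and MGA fell by 0.32. MAX itself had 53.1 ± 2.88 and 57.2 ± 3.61 FPKM and did not pass (adjusted p = 0.151), although it did under quantile normalization and median centring, and MYCN had no row.

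Genes that set how long MYC protein lasts fell or did not pass: of 9 tested, 0 were called higher, 6 lower and 3 not. Of all tested genes, 22.9% were called lower and 20.9% higher. The median log2 change of the list was -0.19 (-0.11 under quantile normalization and -0.093 under median centring). The median of all tested genes moved upward too, from 0.0023 to 0.057 and 0.098. CIP2A, which protects MYC from dephosphorylation by PP2A, fell from 19.8 ± 0.170 to 2.33 ± 0.0791 FPKM (limma log2 change -2.65, adjusted p = 1.97e-09). SKP2, a ubiquitin ligase subunit for MYC and for the CDK inhibitor p27, fell from 18.4 ± 1.11 to 8.34 ± 0.479 (log2 -1.05, adjusted p = 2.77e-06), and the deubiquitinase USP28 from 20.0 ± 0.852 to 14.2 ± 0.824. FBXW7, the ligase subunit that targets phosphorylated MYC, was at 3.91 ± 0.0670 and 3.76 ± 0.258 FPKM and did not pass (adjusted p = 0.621), with a direction that turned under both of these scalings. CIP2A and SKP2 are also known as genes of dividing cells, and MYC protein was not measured here.

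**Figure D4:**
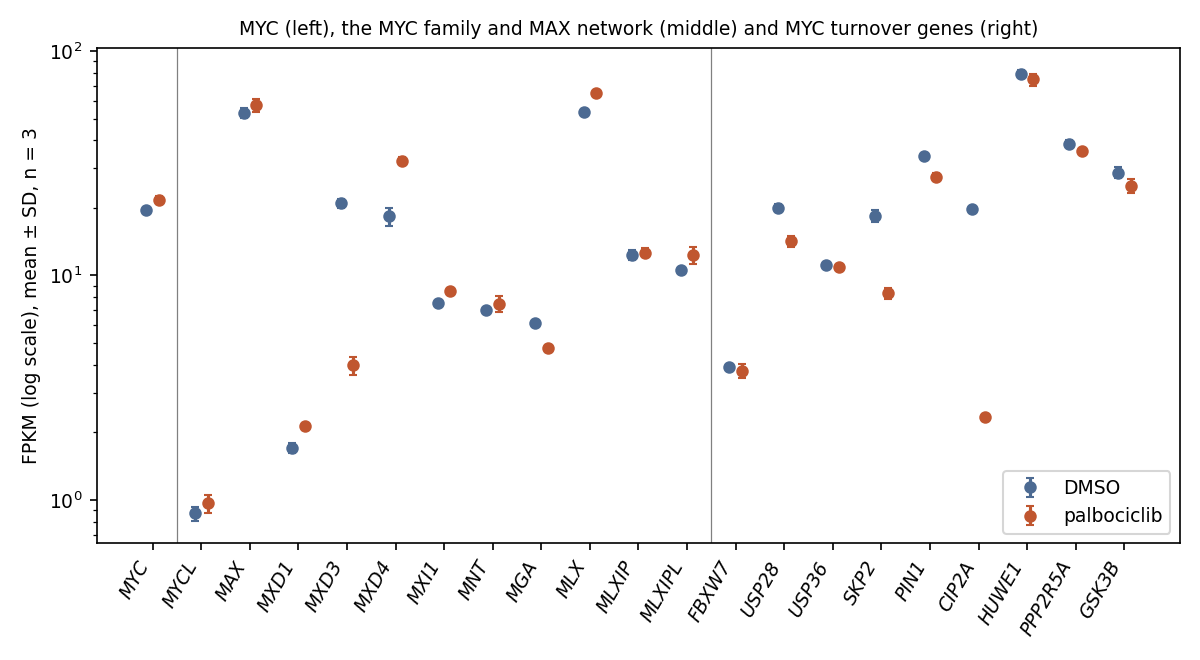
FPKM on a log axis (y), mean ± SD of 3 libraries, of MYC (left), 11 genes of the MYC family and MAX network (middle) and 9 genes of MYC protein turnover (right), in DMSO (blue) and palbociclib (orange). MYC moves from 19.7 to 21.7, while MXD3 drops from 21.0 to 3.97, CIP2A from 19.8 to 2.33 and MXD4 climbs from 18.3 to 32.5.

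The listed MYC target genes were mostly lower, while MYC RNA was 1.10-fold higher. Of 40 tested, 1 was called higher, 25 lower (62.5%, against 22.9% of all tested genes) and 14 not. The median log2 change was -0.20, and it was -0.12 under quantile normalization and -0.10 under median centring. The median of all tested genes moved upward too, from 0.0023 to 0.057 and 0.098. TCOF1, a nucleolar factor for ribosomal RNA synthesis, fell from 23.4 ± 0.590 to 10.8 ± 0.393 FPKM (limma log2 change -1.05, adjusted p = 3.64e-07), PA2G4 from 236 ± 8.26 to 163 ± 3.90 and NOP56, a core protein of small nucleolar RNA particles, from 132 ± 3.46 to 91.7 ± 2.20. The exception was TFRC, the transferrin receptor, which rose from 268 ± 8.25 to 324 ± 9.02 FPKM (log2 0.27, adjusted p = 0.00034). The treated libraries were alike, with list medians of -0.19, -0.20 and -0.22. Most of these genes act in ribosome production and are controlled by other factors too, and MYC binding was not measured.

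Of the accessible regions around the genes, 1 passed the test. The ATAC-seq table held counts for 38121 peaks, with 12830062 to 18250496 counts in peaks per library, and the edgeR quasi-likelihood test called 2061 peaks higher and 2464 lower (2573 and 2030 when scaled by library totals). Coordinates are those of the authors' peaks on GRCh38. Peaks were given to a gene when they lay within 50 kb with no protein-coding gene nearer, and nearer non-coding genes were not considered. This gave 25 peaks: 9 for FOS, 3 each for FOSL2, ATF3 and MYC, 2 each for FOSB and JUNB, 1 each for FOSL1, JUN and JUND, and 0 for EGR1. Of the 25 peaks, 1 was called higher (5.41% of all peaks) and 0 lower (6.46%). Of their log2 changes 12 were positive and 13 negative, with a median of -0.011, against 0.0043 over all peaks, and a range from -0.20 to 0.35.

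Among the genes with a promoter entry, peaks within 1 kb of a start were found for FOS, FOSB and JUNB only. No start was used for FOSL1 and MYC, so whether their peaks lie at a start was not judged. The JUNB peak (chr19:12791320-12791821, over the start and shared with the equally near HOOK2) had 57.5, 59.1 and 61.0 CPM (counts scaled by library size) in DMSO and 61.6, 63.5 and 62.7 after palbociclib. Its groups did not overlap, as in 28.3% of all peaks, but the change was small, at a log2 of 0.080 (SE 0.061, edgeR adjusted p = 0.437). The peak over the FOS start (chr14:75278434-75279106) had 74.0 ± 3.18 and 72.3 ± 6.40 CPM, and the one ending 907 bases before it (chr14:75276969-75277921) had 87.0 ± 5.16 and 88.5 ± 3.20. Their log2 changes were -0.030 and 0.024 (edgeR adjusted p = 0.807 and 0.834), and both held more counts than most of the 25 peaks, which differ in length, while FOS RNA was the lowest of the 9 genes. The FOSB start peak (chr19:45467557-45468025) had 23.7 ± 2.42 and 22.6 ± 1.53 CPM (log2 -0.066, adjusted p = 0.707).

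The JUN genes and FOSL2, which rose in RNA, had no called peak within 50 kb. The peak nearest to JUN began 25255 bases before its start and had 15.2 ± 1.31 and 14.6 ± 0.571 CPM (log2 -0.059, edgeR adjusted p = 0.791). JUND had 1 peak, which overlapped the end of the gene 1773 bases from its start (chr19:18279592-18279849), at 35.5 ± 1.88 and 32.8 ± 3.89 CPM (log2 -0.11, adjusted p = 0.406), and the 3 peaks of FOSL2 had log2 changes from -0.045 to 0.073. Peaks outside the deposited set were not measured, so nothing can be said of the start sites of JUN, JUND and FOSL2.

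FOSL1 (chromosome 11, 65892049 to 65900545), whose RNA had no row, had 1 peak over the end of its span at the higher coordinate (chr11:65900192-65900775). It had 80.1 ± 5.19 CPM in DMSO and 72.0 ± 3.17 after palbociclib with overlapping libraries, a log2 change of -0.16 (SE 0.058, edgeR adjusted p = 0.0618). That peak passed the threshold when DMSO replicate 1 (adjusted p = 0.0317) or palbociclib replicate 2 (0.0462) was left out, and missed it in the 10 remaining alternatives.

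The 1 called peak lies 45660 bases beyond the end of MYC (chr8:127788611-127789316). Its libraries had 13.1, 11.1 and 10.5 CPM in DMSO and 15.6, 14.2 and 14.3 after palbociclib, without overlap, from 149 to 254 counts per library. The log2 change was 0.35 (SE 0.12, edgeR adjusted p = 0.0407) between means of 11.6 ± 1.33 and 14.7 ± 0.753 CPM. The call ended without DMSO replicate 2 (adjusted p = 0.134), DMSO replicate 3 (0.191), palbociclib replicate 1 (0.170) or palbociclib replicate 2 (0.0590), and under the DESeq2 Wald test (0.112). The MYC peak nearest to the gene, 1064 bases away (chr8:127734035-127734370), was stronger and did not pass, at 49.1 ± 1.17 and 47.01 ± 1.97 CPM (log2 -0.064, adjusted p = 0.600).

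**Figure D5:**
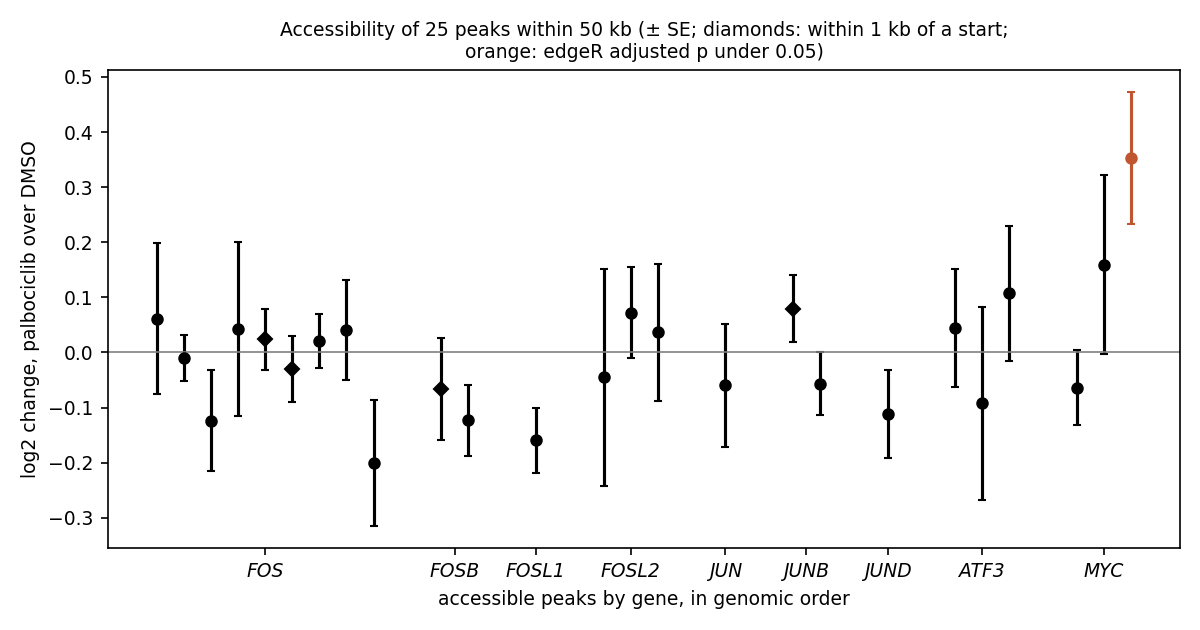
Log2 change in ATAC-seq counts, palbociclib over DMSO (y axis), of the 25 peaks within 50 kb, grouped by gene and in genomic order (x axis), with bars of 1 SE from edgeR. Diamonds lie within 1 kb of a start, which was not judged for FOSL1 and MYC, and orange marks an adjusted p under 0.05. Only the peak 45660 bases beyond MYC, at 0.35, is orange, and the other 24 lie between -0.20 and 0.16.

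Alternative splicing could be read for few of these genes. The rMATS tables listed 8 events in them, 5 in ATF3, 2 in MYC and 1 in FOSB, and only 1 in ATF3 passed the minimum of 20 reads on average with 5% of them in the rarer form. That exon (chromosome 1, 212619046 to 212619266, 221 bases) was mostly skipped, with inclusion levels of 0.034, 0.020 and 0.076 in DMSO and 0.002, 0.031 and 0.052 after palbociclib. The groups overlapped, and the log2 odds of inclusion changed by -0.66 (edgeR adjusted p = 0.840), where 0.312% of 13469 skipped exons were called. The FOSB event is an exon of 108 bases covered by a mean of 10 reads per library, too few to test.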

How the data were processed

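Poly(A) RNA-seq and ATAC-seq were each run on 6 libraries, 3 per treatment, grouped by the labels. The RNA values are FPKM as deposited by the authors, and the submitters' processing notes name fastp 0.23.2, STAR 2.7.10b, Salmon 1.10.2, SAMtools 1.16 and DESeq2 1.44.0 on GRCh38, with no roles. The FPKM totals differ between libraries, and the total depth, the counting strand and the annotation are not given in the sources used here. The authors' deposited table, which is theirs throughout, holds per the file headers a mean normalized count (a signal), log2 fold changes with SE, a Wald statistic (a score) and p-values. Peak counts were made by the authors with featureCounts 2.0.6 on deduplicated alignments over 1 peak set, per the file headers. Its command line does not ask for pairs to be counted, so a count may be a single read. The processing notes also list Bowtie2, Picard and MACS3. The splicing tables deposited by the authors hold rMATS inclusion and skipping read counts, inclusion levels, their difference (a score) and p-values.

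From these, FPKM were tested with limma 3.58.1 (R 4.3.3) after adding 1 and taking log2, with the variance trend over intensity, for genes with a mean of at least 0.5 FPKM, a filter that removed FOS, FOSB and EGR1. Peaks were tested with the edgeR 4.0.16 quasi-likelihood test after TMM and filterByExpr. Splicing used the same test on both forms of an event, fitted per library with an interaction of form and treatment, where events averaged 20 reads or more and the rarer form held 5% or more. Benjamini-Hochberg adjustment ran over all features of a table, within type for splicing. The RNA, peak and splicing tests were each also tried on simulated data. Gene positions and promoters came from RefSeq.

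The genes and lists were chosen with earlier results of these data known. Named from each list were the 3 largest rises and the 3 largest falls with an adjusted p under 0.05, a mean of at least 1 FPKM and groups that do not overlap. MAX, DUSP6, ETV1, ETV4, ETV5, FBXW7, the other immediate early genes called higher, and peaks outside promoters that were not called, were added after their values were seen. Alternatives were another pseudocount (0.1), other filters, quantile normalization, median centring, no trend, library totals, DESeq2 1.42.0, other peak windows, the replicate block and leaving out each library.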

Additional observations from a re-analysis of the deposited data

How the results depend on the processing

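Precision is limited by 3 libraries per group, and FOS, FOSB and EGR1 are too low for a firm value. For the 6 tested genes of the AP-1 and MYC group, 40 of 42 other settings and 32 of 36 fits with a library left out kept the direction and the side of the threshold, and the 6 exceptions were all MYC. For 63 other named genes, 428 of 439 other settings and 348 of 378 fits with a library left out did so. The direction turned for DUSP6 without palbociclib replicate 3 (from -0.0034 to 0.25 over the libraries left out) and for FBXW7 under quantile normalization (0.031) and median centring (0.052). Median centring gave 5468 genes higher. Leaving out 1 library gave 2702 to 3056 genes higher and 3143 to 3364 lower, and 4 to 5 of the AP-1 and MYC genes higher and 0 lower.

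The replicate numbers were checked for pairing: the deviations of same-numbered libraries had r of 0.11, -0.0051 and 0.088 in RNA and 0.0052, 0.039 and -0.025 in ATAC. The labels state no pairing, and with 3 libraries per group this check cannot decide whether there was one. With the replicate block, 3330 genes were higher and 3633 lower, 4 of the AP-1 and MYC genes were higher and 0 lower, 2133 peaks were higher and 2470 lower, 1 of the 25 peaks was higher and 0 lower, and 159 splicing events were higher and 91 lower, 0 of them in these genes. In RNA, DMSO replicate 1 and palbociclib replicate 1 each correlated best with each other, as did both replicates 3, while both replicates 2 did not. In ATAC only both replicates 2 did.

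The DESeq2 Wald test gave 981 peaks higher and 1533 lower, and 0 of the 25 peaks higher. Within 10 kb 0 peaks were called higher, and within 100 kb 2. Leaving out 1 ATAC library gave 1103 to 1874 peaks higher and 1557 to 2176 lower, with 0 to 1 of the 25 peaks higher and 0 to 1 lower. The lowest counts came without DMSO replicate 3. The FOS peak before the start turned without DMSO replicate 1 (-0.021 to 0.054 over the libraries left out), and the peak over the start without DMSO replicate 3 (8.4e-05) and palbociclib replicate 2 (-0.11 to 0.019). For splicing, 92 events were higher and 39 lower (47 and 16 with no filter on the minor form), and 53 to 83 higher and 13 to 48 lower with 1 library left out, with 0 in these genes throughout. The ATF3 exon turned without palbociclib replicate 1 (-1.43 to 0.080 over the libraries left out). The cause of these shifts was not tested.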

Other observations

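Beyond the 50 kb window, MYC had further peaks that were looked at after the called peak was seen. They were given to MYC as the nearest protein-coding gene, and nearer non-coding genes were not considered. Within 100 kb, all 7 peaks beyond the end of the gene at the higher coordinate had positive log2 changes, from 0.14 to 0.38 with a median of 0.20, and 2 of the 7 were called higher. Over all 38121 peaks 19428 changes were positive and 5.41% of peaks were called higher. The further called peak (chr8:127819491-127820238, 76540 bases beyond the gene) had 26.7 ± 2.69 CPM (library-scaled counts) in DMSO and 35.1 ± 4.14 after palbociclib (SD, n = 3). Its log2 change was 0.38 (SE 0.086, edgeR adjusted p = 0.00113). On the other side of MYC, both peaks within 100 kb had negative changes, -0.29 for the one 66026 bases away (edgeR adjusted p = 0.121) and -0.064 for the one 1064 bases away, and neither was called. Neighbouring peaks share a region and libraries, so these counts are a description and no test.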
